A study of Mus musculus with 68 samples.

Results

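The 9 genes described here encode enzymes that remove methyl groups from histone H3 or add them to its lysine 36: Kdm1a, Kdm1b, Kdm5a, Kdm5b, Kdm5c, Kdm6a, Kdm6b, Setd2 and Nsd1. They were chosen by name, out of 24941 gene names in the tables, and all 9 had a row in each of the 8 tables. In 6 tables all 9 passed a filter of 1 FPKM in at least 2 libraries. In the oocyte and 1-cell tables Kdm5a stayed below it and 8 were tested. FPKM takes reads per gene relative to its length and to the size of the library, so levels of different genes can be set side by side.

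Mouse oocytes and embryos with different genotypes of Ezhip were profiled by Smart-seq2, which amplifies whole polyadenylated transcripts from very few cells. EZHIP, encoded on the X chromosome, restrains PRC2, the methyltransferase of H3 lysine 27. The oocytes, labelled FGO, comprised 2 wild type (WT), 2 Ezhip Het and 3 Ezhip KO libraries. WT, Ezhip mHet and Ezhip mKO had 2 libraries each at the 1-cell (PN5) and late 2-cell stages and in the first of 2 tables of E3.5 embryos, and likewise in both tissues of E6.5 embryos, epiblast and extraembryonic ectoderm. The 8-cell stage had 2 WT, 1 mHet and 3 mKO libraries, the second E3.5 table had 5 of each genotype, and E4.25 had 4 WT, 4 mKO and 1 mHet library after a pair of identical mHet libraries was counted as 1. The labels give genotypes without the sex of the embryos or the number of cells or embryos pooled, and do not say whether the libraries stem from different animals, so the spread behind each p-value is that of libraries and may be technical. The letter m is not spelled out in the labels. The single mHet libraries at the 8-cell stage and E4.25 entered no test against WT.

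Each member has a known substrate. KDM1A and KDM1B oxidise methyl groups off H3 lysine 4, and KDM1B is known from mouse oocytes, where it is needed for maternal DNA methylation imprints. KDM5A, KDM5B and KDM5C remove trimethylation from the same residue, and the oocyte's broad lysine 4 domains are taken down by KDM5 enzymes around the time the embryonic genome is switched on. KDM6A and KDM6B remove methylation from lysine 27, the mark that PRC2 writes and EZHIP restrains. SETD2 is the main enzyme for trimethylation of lysine 36 and guides DNA methylation in the oocyte, while NSD1 writes mono- and dimethylation of that residue, which hinders PRC2. Kdm5c and Kdm6a lie on the X chromosome, and each has a relative on the Y chromosome, Kdm5d and Uty.

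Promoter sequences are shown for Kdm1b and Kdm6a, the members with the highest WT means in 1-cell embryos, and for Kdm5b and Setd2, those with the highest in late 2-cell embryos. They come from RefSeq (build GRCm38.p6, which held 6 of the 9 members) and run 5′ to 3′ from 250 bases before the start of the gene to 50 after it. Capitals mark every match to a motif searched on both strands.
Kdm5b (chr1:134559928-134560227, plus strand): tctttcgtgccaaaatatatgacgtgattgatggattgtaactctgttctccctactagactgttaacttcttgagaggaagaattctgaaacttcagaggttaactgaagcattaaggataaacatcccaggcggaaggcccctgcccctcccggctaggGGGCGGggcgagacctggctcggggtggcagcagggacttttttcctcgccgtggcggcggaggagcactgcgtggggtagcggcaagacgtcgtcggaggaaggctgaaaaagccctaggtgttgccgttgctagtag
Setd2 (chr9:110532347-110532646, plus strand): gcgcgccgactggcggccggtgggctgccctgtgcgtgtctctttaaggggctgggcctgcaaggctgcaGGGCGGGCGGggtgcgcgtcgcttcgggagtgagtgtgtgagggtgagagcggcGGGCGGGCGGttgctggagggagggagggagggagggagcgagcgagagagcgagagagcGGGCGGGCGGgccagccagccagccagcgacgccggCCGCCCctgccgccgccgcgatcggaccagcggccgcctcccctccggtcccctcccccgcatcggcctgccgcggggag
Kdm1b (chr13:47043249-47043548, plus strand): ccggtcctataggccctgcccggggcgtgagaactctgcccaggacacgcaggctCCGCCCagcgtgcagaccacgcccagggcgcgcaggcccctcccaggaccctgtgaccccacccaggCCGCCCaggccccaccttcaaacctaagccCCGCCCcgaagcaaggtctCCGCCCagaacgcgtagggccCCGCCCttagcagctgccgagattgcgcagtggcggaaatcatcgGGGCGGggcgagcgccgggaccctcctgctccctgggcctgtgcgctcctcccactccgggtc
Kdm6a (chrX:18162325-18162624, plus strand): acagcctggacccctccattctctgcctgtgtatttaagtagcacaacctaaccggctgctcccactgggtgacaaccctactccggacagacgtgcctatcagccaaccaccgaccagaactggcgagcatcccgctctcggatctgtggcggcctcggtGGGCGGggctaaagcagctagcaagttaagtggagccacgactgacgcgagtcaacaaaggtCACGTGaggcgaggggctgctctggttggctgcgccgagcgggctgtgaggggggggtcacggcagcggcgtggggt
The capitals are GC boxes (GGGCGG) and, in Kdm6a, an E-box (CACGTG). GC boxes numbered 7 in Setd2, with overlapping copies, 6 in Kdm1b, 1 in Kdm5b and 1 in Kdm6a, and 35.9% of the 32544 RefSeq promoters held at least 1. The E-box stood in 7.17% of promoters. The Kdm1a and Kdm5c promoters each held 1 CCAAT, a motif of 37.4% of promoters. Of the motifs of other factors, the ETS motif CCGGAAG was in none of the 6 and in 8.91% of all promoters. The same was true of the TATA motif TATAAA, found in 13.6%, of the OTX and OBOX motif GGATTA, found in 7.06%, and of the NR5A2 motif CAAGGTCA, found in 1.53%. Setd2 had 38 CG dinucleotides in its window, more than 95.0% of promoters, Kdm1b 26, Kdm6a 21 and Kdm5b 17, against a median of 7. Setd2 and Kdm1b, whose levels differed in opposite directions between these stages, both carried several GC boxes.

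Ezhip itself, the check of the labels, had 297 to 546 FPKM in WT, 84.1 to 143 in Het and at most 0.175 in KO oocytes. In late 2-cell embryos it had 15.7 to 15.9 FPKM in WT, 5.92 to 9.80 in mHet and at most 0.585 in mKO libraries. From the 8-cell stage on no library exceeded 1.50 FPKM, so the gene does not check the labels there. Summed oocyte markers (Zp3, Gdf9, Bmp15, Nlrp5, Figla) reached 3660 to 7779 FPKM in oocytes and at most 1.71 in the epiblast. Inner cell mass and epiblast markers summed to 139 to 183 FPKM in the epiblast against 4.32 to 37.0 in the extraembryonic ectoderm, whose trophoblast markers summed to 222 to 399 FPKM against 16.6 to 54.6. Of the former markers Sox2 did not follow the sum, with 1.54 to 7.44 FPKM in the epiblast and 1.98 to 19.5 in the extraembryonic ectoderm. Pou5f1 reached 18.3 FPKM in the extraembryonic ectoderm, and the trophoblast marker Elf5 reached 18.4 in the epiblast. Carry-over between the tissues was not tested. Follicle cell markers summed to 4.63 to 21.6 FPKM in oocytes. Most of this was Cyp19a1, with 4.63 to 21.2 FPKM there and 14.1 to 26.2 in 1-cell embryos. Cyp11a1 reached 5.66 FPKM in oocytes, and Foxl2, Amh and Inhba at most 0.207. The ribosomal transcript Rn45s took 9.19% to 69.5% of FPKM at E3.5 in the second table and 11.7% to 68.6% at E4.25, but at most 11.6% at other stages except 1 WT library of the first E3.5 table with 21.0%. Since FPKM are shares, a large Rn45s share lowers every other gene, so levels were also taken after removing Rn45s and rescaling the rest to a sum of 1000000. The tables were normalized separately, and levels across stages are therefore a description with no test. In these bulk samples fewer cells of a type and less RNA per cell cannot be told apart.

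Among the lysine 4 demethylases, Kdm1b, the oocyte enzyme, was highest in oocytes and 1-cell embryos and low from the 8-cell stage on. Its WT libraries had 18.3 and 35.6 FPKM in oocytes, 30.2 and 25.4 in 1-cell embryos, 12.7 and 22.2 in late 2-cell embryos and 2.57 and 2.01 at the 8-cell stage. No library of any genotype after the late 2-cell stage exceeded 7.12 FPKM, whereas none before it was under 16.0. Kdm5b went the other way. Its WT libraries had 0.286 and 1.07 FPKM in oocytes, 2.21 and 1.83 in 1-cell embryos, 56.1 and 45.1 in late 2-cell embryos and 24.5 and 27.5 at the 8-cell stage. The late 2-cell mean was 25.1 times the 1-cell mean, or 30.9 times after rescaling without Rn45s, and the libraries of these stages were far apart in every genotype. Levels were then 6.95 and 9.07 FPKM in the first E3.5 table, 1.74 to 4.29 (median 3.91) in the second and 2.37 to 4.55 at E4.25, before 37.2 and 31.8 in the E6.5 epiblast.

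Kdm5a, the paralog of Kdm5b, was near 0 before the late 2-cell stage. All 13 oocyte and 1-cell libraries lay between 0.0388 and 0.511 FPKM. The WT libraries had 8.44 and 8.39 FPKM in late 2-cell embryos, 4.56 and 4.20 at the 8-cell stage, and then 13.0 and 12.4 in the E6.5 extraembryonic ectoderm, the highest WT group on FPKM. After rescaling without Rn45s the extraembryonic ectoderm mean, 30.9 per 1000000, was under those of late 2-cell embryos (36.0) and of E4.25 (55.0). Kdm5c had the flattest profile of the 9. Its WT means ranged from 1.15 ± 0.453 FPKM (SD, n = 4) at E4.25 to 3.51 ± 1.05 (n = 2) in the epiblast, a ratio of 3.04. After rescaling without Rn45s E4.25 had its highest mean instead, 18.3 per 1000000, and oocytes the lowest, 4.37, a ratio of 4.20. Kdm1a, the catalytic subunit of the CoREST complex, was present at every stage. It had 11.0 and 11.7 FPKM in WT 1-cell embryos, 3.43 and 3.87 in late 2-cell embryos and 29.0 and 21.1 in the epiblast. After rescaling the WT mean of Kdm1a was highest at E4.25, at 73.3 per 1000000, against 60.2 in the epiblast.

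Of the lysine 27 demethylases, Kdm6a was the member with the highest mean in WT 1-cell embryos, with 32.6 and 25.9 FPKM. It had 12.0 and 13.9 FPKM at the late 2-cell stage, 5.11 and 6.76 at the 8-cell stage and 2.42 and 3.40 in the first E3.5 table. Kdm6b had 13.9 and 18.0 FPKM in WT 1-cell embryos, 5.00 and 9.21 in late 2-cell embryos, 2.18 and 4.69 at the 8-cell stage and 12.9 and 12.0 in the first E3.5 table. In the second E3.5 table WT Kdm6b was 4.33 to 5.19 FPKM (median 4.57), well under the first. In the epiblast Kdm6b was the lowest member, with 3.31 and 2.86 FPKM, and Kdm6a had 5.41 and 9.07.

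The lysine 36 methyltransferases differed from each other in time. Setd2 had 7.26 and 5.73 FPKM in WT 1-cell embryos, 39.5 and 29.9 in late 2-cell embryos, 19.8 and 19.3 at the 8-cell stage and 14.5 and 16.1 in the first E3.5 table. The late 2-cell mean was 5.34 times the 1-cell mean, and 6.60 times after rescaling. Nsd1 was highest in 1-cell embryos, with 15.5 and 14.2 FPKM, and had 9.68 and 9.57 at the late 2-cell stage and 4.19 and 3.39 at the 8-cell stage. By the epiblast the levels of Setd2, 8.05 and 7.34, and Nsd1, 8.79 and 7.45, overlapped.

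**Figure D1:**
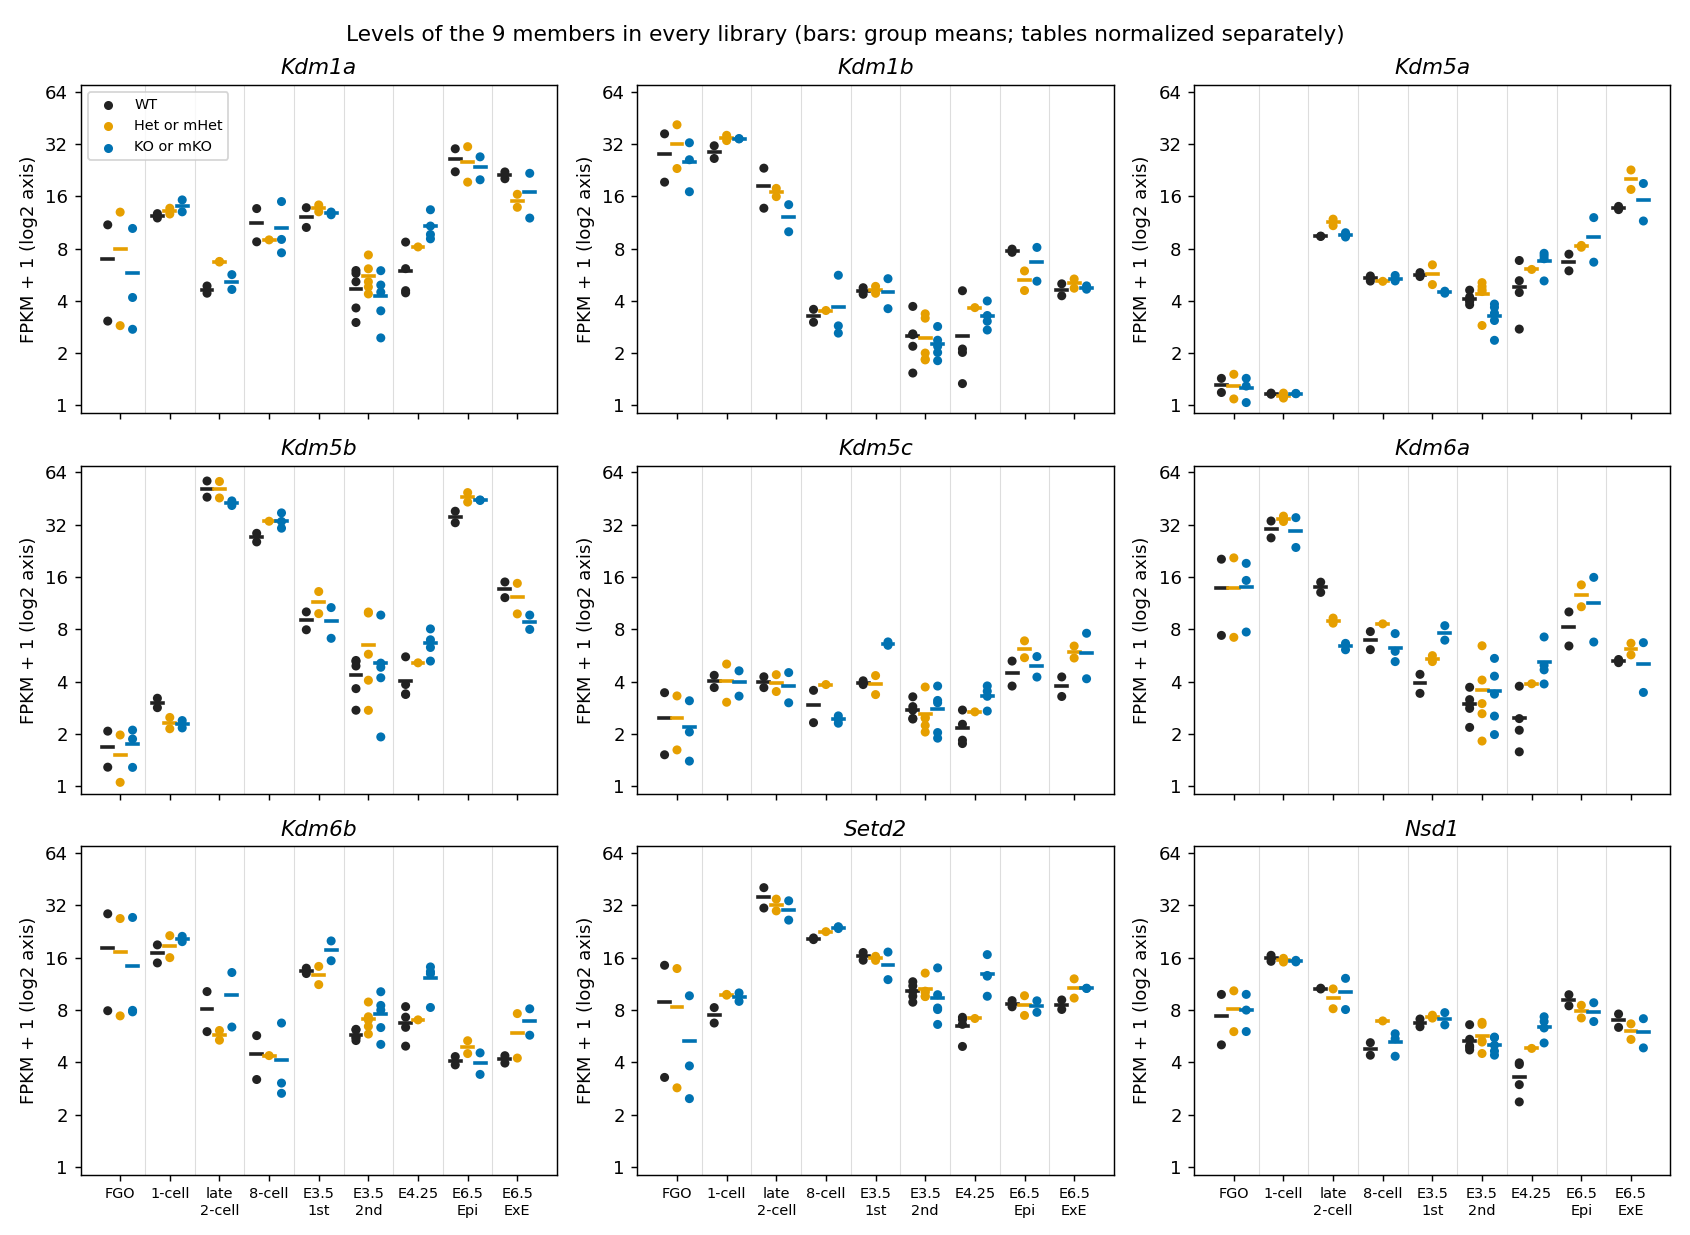
Levels of the 9 genes in every library, by stage or tissue on the horizontal axis and FPKM + 1 on a log2 vertical axis, with points for libraries, bars for group means and colours for genotypes. Kdm5b and Setd2 peak in late 2-cell embryos, Kdm1b and Kdm6a in oocytes or 1-cell embryos, and Kdm5a is near 0 until the late 2-cell stage.

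The order of the members changed with the stage. In WT 1-cell embryos Kdm6a (29.2 ± 4.76 FPKM, SD, n = 2) and Kdm1b (27.8 ± 3.42) led. Their ranges over libraries overlapped, though Kdm6a was the higher within each library. Kdm6b and Nsd1, which also overlapped, came next, then Kdm1a, Setd2, Kdm5c, Kdm5b and last Kdm5a (0.169 ± 0.0128). In late 2-cell embryos Kdm5b (50.6 ± 7.79) and Setd2 (34.7 ± 6.77) led without overlapping each other or the next gene. They led at the 8-cell stage too, at 26.0 ± 2.17 and 19.6 ± 0.324 FPKM. Among the other 8-cell members Nsd1, Kdm6b, Kdm1b and Kdm5c formed a run of overlapping neighbours. Setd2 led in both E3.5 tables, at 15.3 ± 1.18 (n = 2) and 9.26 ± 1.10 (n = 5). In the E6.5 epiblast Kdm5b (34.5 ± 3.82) and Kdm1a (25.1 ± 5.58) stood above all others, and in the extraembryonic ectoderm Kdm1a (20.1 ± 1.34) stood above Kdm5a (12.7 ± 0.412) and Kdm5b (12.6 ± 1.98), which overlapped.

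In the oocyte table the ranges of neighbouring members over WT libraries overlapped throughout, and the libraries fell into sets. Within each WT library the order ran Kdm1b, Kdm6b, Kdm6a, Setd2, Kdm1a, Kdm5c, Kdm5b and Kdm5a, and only the place of Nsd1 differed. The libraries whose numbers in the labels run first (WT 1, Het 1, KO 1 and KO 2) detected 7316 to 8443 genes at 1 FPKM, and those numbered next (WT 2, Het 2 and KO 3) detected 9432 to 9801. For 7 of the 9 members every library of the second set lay above every library of the first. Kdm6b had 6.40 to 6.96 FPKM in the first set and 25.9 to 27.6 in the second, Setd2 had 1.47 to 2.81 and 8.65 to 13.5, and Kdm1a had 1.74 to 3.18 and 9.44 to 12.0. Genotypes were therefore also compared within a set. In the second set, with 1 library a genotype and no error, KO minus WT on the log2(FPKM + 1) scale was -0.58 for Setd2, -0.50 for Kdm1b and between -0.15 and 0.02 for the other 7 members. In the first set, with 2 KO libraries and 1 WT library, it ran from -0.09 (Setd2) to 0.56 (Kdm6a).

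The E3.5 tables also differed from each other. WT means of all 9 members were higher in the first table than in the second, by 1.33 times for Nsd1 to 3.01 times for Kdm1a. After rescaling without Rn45s the WT libraries of the first table stood far apart, replicate 1 being the higher for each member. That library had 21.0% of Rn45s and a summed FPKM of 198841, against 386846 in replicate 2. Setd2 had 92.1 and 43.3 per 1000000 in replicates 1 and 2 against a mean of 67.3 in the second table, Kdm6b 82.3 and 32.1 against 35.6, Kdm5c 18.1 and 8.16 against 13.2, and Kdm1a 61.0 and 34.2 against 24.4. Without replicate 1, Setd2, Kdm6b and Kdm5c were thus lower in the first table than the second-table mean and Kdm1a higher.

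Members with alike profiles were described by Pearson's r over the 27 group means (stage by genotype) on the rescaled log2 scale, points that share library preparation and stage. Kdm1b and Kdm6a had r = 0.86, Kdm5a and Kdm5b 0.79, and Kdm1b and Kdm5a -0.56. Among 12461 genes reaching a mean of 5, those most like Kdm1b were Eif4enif1, C2cd5 and Usp9x (r = 0.97 to 0.98), and most like Kdm5a were Adnp, Adrbk1 and Glt25d1 (0.97). Rrp36, Usp22 and Chek2 were most like Kdm5b (0.95 to 0.96), Ddhd2, Rad54l2 and Pank3 most like Setd2 (0.95 to 0.96), and Eya1, Ezh2 and Tcaim most like Kdm6a (0.90 to 0.92). For Nsd1 these were Hist1h1a, Ccnt2 and Pan3 (0.92 to 0.94), for Kdm6b Rfx2, Epb4.1l4b and Emp2 (0.93 to 0.94), and for Kdm1a Fam114a2, Arl5b and Mettl20 (0.88 to 0.89). On FPKM as deposited these lists kept 2 of 3 genes for Kdm1b and at most 1 for the other members.

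The comparison at the centre of the design was whether oocytes and embryos of an altered Ezhip genotype differ from WT, here in the enzymes of other H3 marks. In 16 comparisons of a genotype with WT by limma, none of 140 member tests passed an adjusted p of 0.05. Of these tests 6 had an unadjusted p under 0.05, near the share of 0.05 that chance alone gives. Log2 changes outside E4.25 ran from -1.13 to 0.97, both for Kdm6a, on the log2(FPKM + 1) scale. Few genes of any kind were called, so the count of members stood against a low background. Knockout against WT called 0.0102% of genes tested in oocytes, 0.0116% in 1-cell, 0.00969% in late 2-cell and 0.012% in 8-cell embryos, 0.0407% and 0.0539% in the first and second E3.5 tables, 0.00907% in the epiblast and 0% in the extraembryonic ectoderm. Heterozygous against WT called 0.0272% in the epiblast and 0% in the oocyte, 1-cell, late 2-cell, both E3.5 and extraembryonic ectoderm comparisons. E4.25 was the exception, with 14.6% of genes called. Same-numbered libraries deviated together in the 1-cell, late 2-cell and first E3.5 tables, and with a replicate block there mKO calls rose from 1 to 22 genes at the late 2-cell stage and from 4 to 13 in the first E3.5 table, with no member among them.

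In oocytes the KO changes ran from -0.61 (Setd2) to 0.15 (Nsd1), with SEs of 0.48 to 0.82, and the lowest unadjusted limma p was 0.458. This fit had no term for the library sets described above, over which KO and WT libraries were spread unequally. Both the changes and the SEs therefore carry the difference between sets. In 1-cell embryos the mKO changes ran from -0.41 (Kdm5b) to 0.35 (Setd2), with SEs of 0.19 to 0.32. The mHet 1-cell embryos had values alike in sign and size for these genes, -0.39 and 0.39, against the same WT libraries. At the 8-cell stage changes lay between -0.25 (Kdm5c) and 0.32 (Kdm5b), the lowest p being 0.335. The second E3.5 table, with 5 libraries a group, gave -0.35 (Kdm5a) to 0.37 (Kdm6b), with SEs of 0.21 to 0.41.

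**Figure D2:**
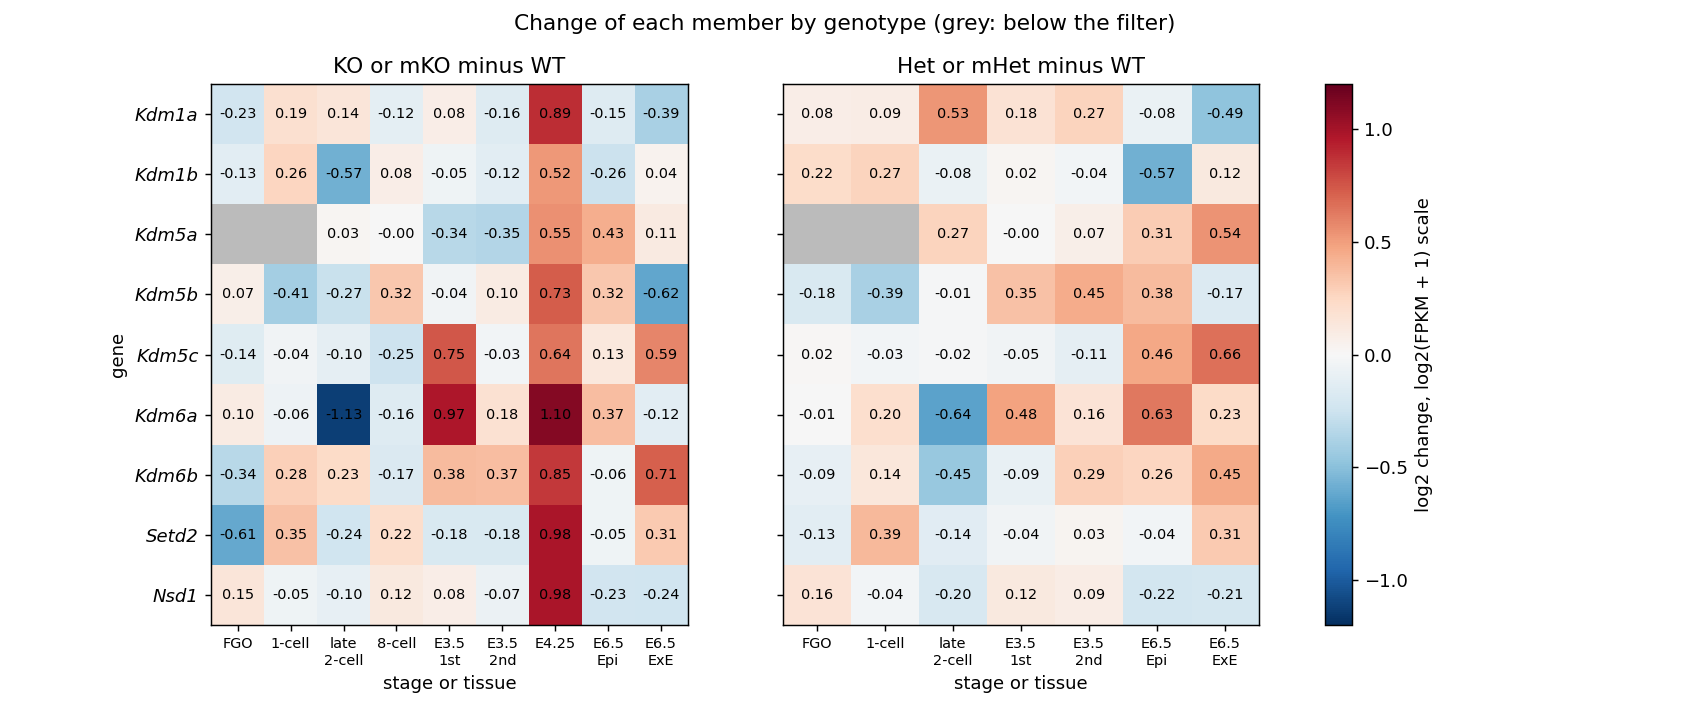
Log2 change of each gene (rows) against WT in each stage or tissue (columns), for KO or mKO on the left and Het or mHet on the right, with colour and printed value on the log2(FPKM + 1) scale and grey where Kdm5a was below the filter. Most values lie near 0, the lowest is -1.13 for Kdm6a in late 2-cell mKO embryos, and the E4.25 column is positive for all 9 genes.

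Kdm6a, which demethylates the residue that PRC2 methylates, had lower values in late 2-cell embryos of both altered genotypes, without passing the test. WT libraries had 12.0 and 13.9 FPKM, mHet libraries 7.67 and 8.28 and mKO libraries 5.64 and 5.10, with no overlap between the 3 groups. The mKO change was -1.13 (SE 0.26, unadjusted p = 0.00221) and did not pass limma's adjusted threshold (adjusted p = 0.379). For mHet it was -0.64 (SE 0.26, unadjusted p = 0.0394, adjusted p = 1.00) against the same WT libraries. Groups of 2 against 2 that did not overlap were common here, at 36.9% of genes tested for mKO and 30.3% for mHet. On FPKM the only other member without overlap in mKO embryos was Kdm5b, with 42.9 and 40.3 FPKM against 56.1 and 45.1 in WT. After rescaling without Rn45s Kdm5b overlapped, while Kdm1a lay above WT and Kdm1b under it. In mHet embryos Kdm1a, with 5.69 and 5.75 FPKM against 3.43 and 3.87, and Kdm5a, with 10.8 and 9.84 against 8.44 and 8.39, lay above WT, though Kdm5a overlapped after rescaling. Summed Y-linked transcripts did not follow the Kdm6a order, at 14.0 and 3.59 FPKM in WT libraries, 0 and 10.3 in mHet libraries and 2.25 and 6.25 in mKO libraries. Summed 2-cell markers (Zfp352, Zscan4d, Tdpoz4, Usp17lc) were 78.5 and 81.6 FPKM for WT, 60.6 and 61.3 for mHet and 140 and 200 for mKO, and their part in the result was not tested. In 1-cell embryos Kdm6a was 34.1 and 22.7 FPKM in mKO and 32.6 and 25.9 in WT libraries, and at the 8-cell stage 4.21 to 6.55 in mKO and 5.11 and 6.76 in WT, so the groups overlapped before and after.

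The X-linked members Kdm5c and Kdm6a had higher values in mKO than in WT embryos of the first E3.5 table, where Y-linked transcripts went with genotype. Neither difference passed the test. Kdm5c had 5.76 and 5.47 FPKM in mKO, 2.84 and 3.04 in WT and 3.33 and 2.37 in mHet libraries (mKO change 0.75, SE 0.32, unadjusted p = 0.0425, limma adjusted p = 0.867). Kdm6a had 5.92 and 7.39 FPKM in mKO, 2.42 and 3.40 in WT and 4.21 and 4.64 in mHet libraries (change 0.97, SE 0.33, unadjusted p = 0.0176, adjusted p = 0.700). On FPKM the mKO libraries lay above all others for both genes. After rescaling without Rn45s this held for Kdm6a, while Kdm5c overlapped, at 13.5 to 20.2 per 1000000 in mKO and 8.16 to 18.1 in WT libraries. Groups of mKO and WT libraries without overlap on FPKM were common in this table, at 25.8% of genes tested. Kdm6b, not X-linked, also lay above WT on FPKM but overlapped after rescaling. Kdm5a, not X-linked either, lay under WT on both scales. In the mKO libraries summed Y-linked transcripts (Ddx3y, Eif2s3y, Kdm5d, Uty) were 0.151 and 0.101 FPKM and Xist, the RNA of the inactive X, 97.8 and 36.7. The WT and mHet libraries had Y-linked sums of 43.5 to 84.7 FPKM and Xist of at most 3.76. Kdm6a and its relative Uty together had 5.92 and 7.39 FPKM in mKO, 5.80 and 5.66 in WT, 6.67 and 8.44 in mHet. Kdm5c and its relative Kdm5d together had 5.76 and 5.49 in mKO, 6.43 and 4.05 in WT, 4.58 and 3.35 in mHet. On these sums the mKO libraries did not lie above all others for either pair. Genotype and the Y-linked level cannot be told apart here. With Rn45s removed the mKO changes of Kdm5c and Kdm6a alone were 0.35 and 0.59. The median of all genes moved from 0.21 to -0.18. WT replicate 1 had the 21.0% Rn45s share and a summed FPKM of 198841, against 386846 in WT replicate 2. The rescaling acts on both.

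The same direction with the Y-linked sum was seen at E6.5, where both kinds of library occurred in WT and in mKO. In the epiblast Kdm6a had 5.41 FPKM (WT column 3) and 5.75 (mKO column 4) in the libraries with Y-linked sums of 90.7 and 82.2, and 9.07 to 14.9 in the other 4 libraries, whose sums were at most 0.189. Kdm5c had 2.77 and 3.25 FPKM in the former and 4.247 to 5.86 in the latter. Extraembryonic ectoderm libraries with Y-linked transcripts had 4.14 and 2.46 FPKM of Kdm6a, against 4.36 to 5.70 in the other 4, and 2.28 and 3.15 of Kdm5c, against 3.25 to 6.59. On FPKM as deposited, libraries with and without Y-linked transcripts did not overlap in either tissue for either gene. After rescaling without Rn45s this still held except for Kdm5c in the extraembryonic ectoderm, at 5.63 to 7.94 against 7.82 to 20.6 per 1000000. How many of all genes separate these libraries in this way was not tested. Small groups without overlap were common at E6.5, at 30.9% to 51.4% of genes between an altered genotype and WT. Uty, the Y-linked relative of Kdm6a, had 4.41 and 5.11 FPKM in the epiblast libraries with Y-linked transcripts, so that Kdm6a and Uty together had 9.83 and 10.9 FPKM, against 9.13 to 14.9 in the other libraries. Kdm5c and Kdm5d together had 4.75 and 4.71 FPKM there, against 4.247 to 5.86. In the extraembryonic ectoderm Kdm6a and Uty together had 6.77 and 4.91 FPKM, against 4.36 to 5.70 without Y-linked transcripts. Kdm5c and Kdm5d together had 3.38 and 3.70 FPKM in that tissue, against 3.25 to 6.59. At E4.25 and in the E3.5 embryos of the second table Kdm6a overlapped between both kinds of library, at 0.576 to 6.22 FPKM with and 1.45 to 3.96 without Y-linked transcripts at E4.25, and at 0.818 to 3.08 with and 0.981 to 5.43 without them at E3.5. Kdm5c overlapped too, at 0.758 to 2.52 FPKM with and 1.27 to 2.77 without Y-linked transcripts at E4.25. In the second E3.5 table it had 0.889 to 2.02 FPKM with and 1.03 to 2.77 without them. Because the counting of reads shared by relatives is not given, the split between Kdm6a and Uty and between Kdm5c and Kdm5d is uncertain.

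**Figure D3:**
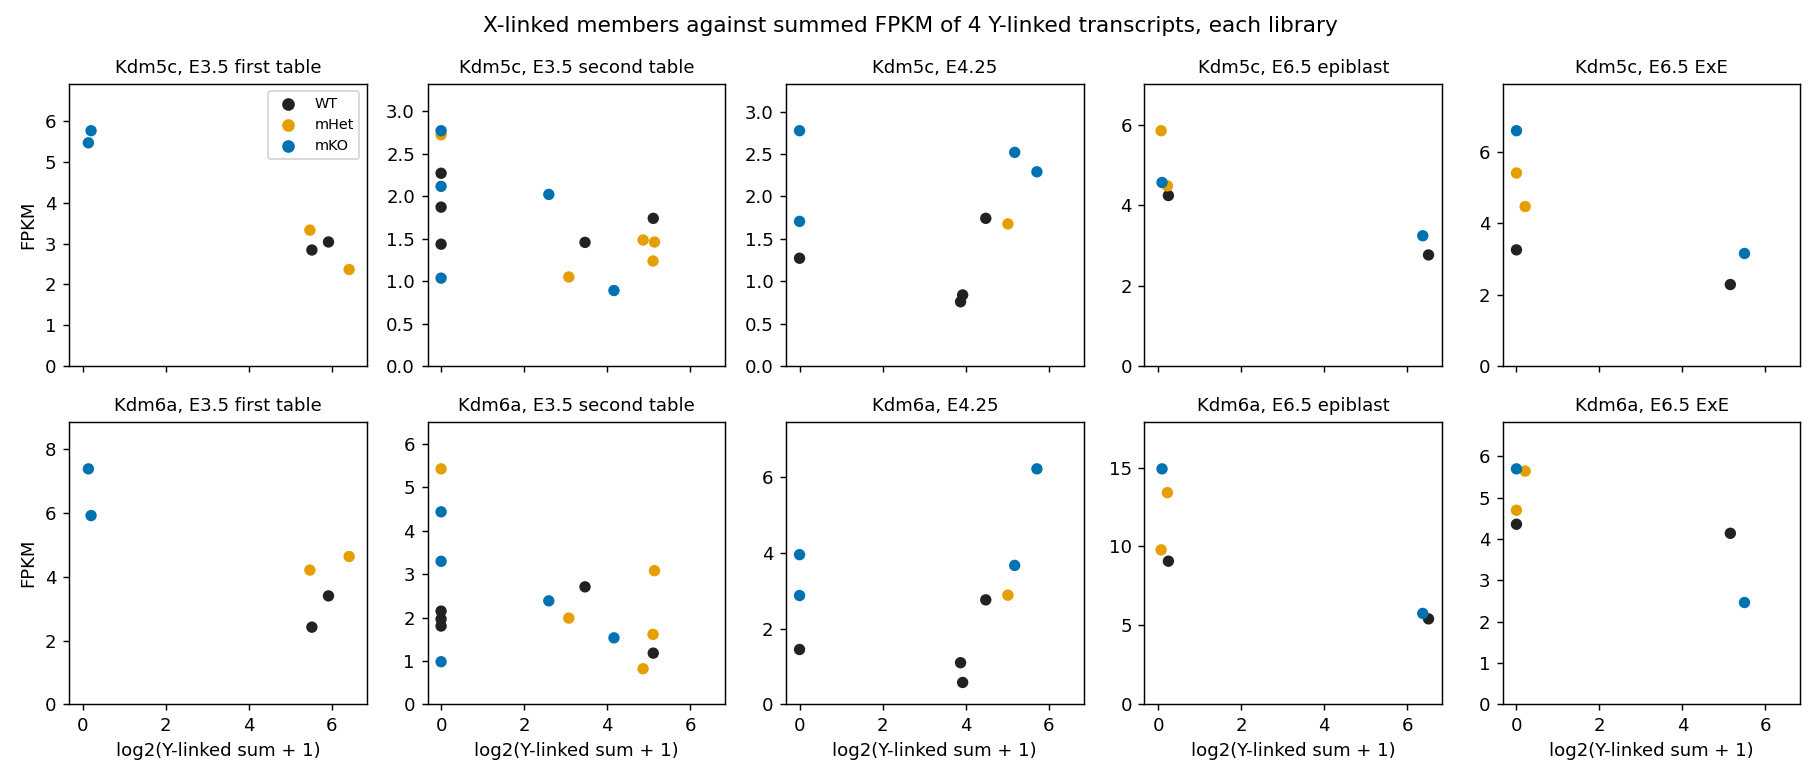
FPKM of Kdm5c (top) and Kdm6a (bottom) in each library against log2 of the summed FPKM of 4 Y-linked transcripts plus 1, by stage or tissue and coloured by genotype. In the first E3.5 table and in both E6.5 tissues the libraries on the right lie below those on the left, and in the first E3.5 table all libraries on the left are mKO.

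At E4.25 all 9 members had higher means in mKO than in WT embryos, and so did most genes. The members' median log2 change was 0.85, against 0.74 over the 9550 genes tested, 86.2% of which had a higher mKO mean. Kdm6a had 2.87 to 6.22 FPKM in mKO and 0.576 to 2.76 in WT libraries (change 1.10, SE 0.41, limma adjusted p = 0.0755). Nsd1 had 4.17 to 6.31 FPKM in mKO and 1.36 to 2.97 in WT libraries (change 0.98, SE 0.41, adjusted p = 0.104). Neither passed the threshold with all libraries, but Kdm6a did without WT replicate 1 (change 1.33, adjusted p = 0.0373). Both, and also Kdm1a and Setd2, had groups that did not overlap, 4 of 9 members against 21.9% of genes tested. Within the first and second sets of library numbers the Kdm6a change was 1.05 and 1.16 and that of Nsd1 1.00 and 0.96.

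The Rn45s share moved with genotype at E4.25, at 21.0% to 68.6% in WT and 11.7% to 52.4% in mKO libraries. Summed FPKM differed as well, at 115917 to 150194 in WT and 138221 to 222833 in mKO libraries. Removing Rn45s and rescaling the rest acts on both. After median ratio scaling the members' median change was -0.02, 3 of the 9 were higher, and Kdm6a and Nsd1 had changes of 0.38 and 0.17. With Rn45s removed it was 0.09, 6 of the 9 were higher, and the changes were 0.50 and 0.30, with no member's groups free of overlap. These scalings took the number of genes called from 1394 to 30 and to 69 and the median of all genes from 0.74 to 0.06 and to 0.16. The sign at E4.25 was the same in every scaling for Kdm6a, Nsd1 and Setd2, whereas that of the other 6 depended on the scaling. The Setd2 changes, 0.04 after median ratio scaling and 0.18 with Rn45s removed, lay near the medians of all genes. Summed inner cell mass markers were 4.27 to 10.9 FPKM in WT and 17.9 to 77.6 in mKO libraries, trophoblast markers 15.1 to 144 and 110 to 418, and primitive endoderm markers 4.26 to 36.1 and 38.4 to 51.0, and their part in the result was not tested.

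**Figure D4:**
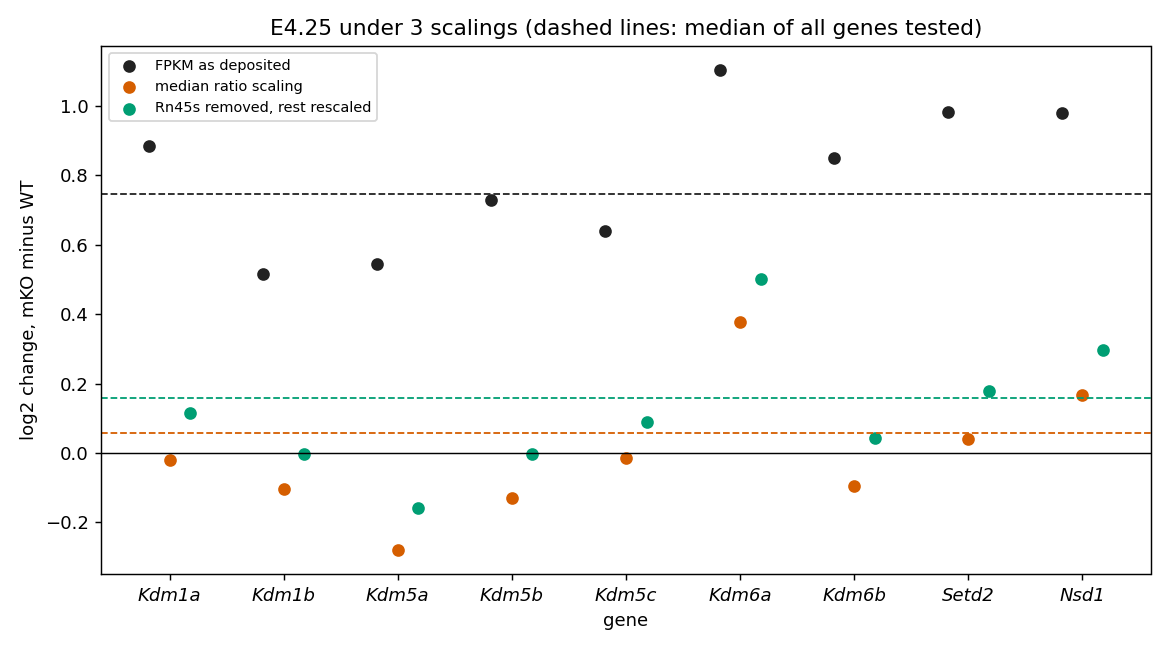
Log2 change of each gene at E4.25, mKO minus WT, with FPKM as deposited, after median ratio scaling and with Rn45s removed, and dashed lines at the median of all genes tested. The 9 points of the deposited values run from 0.52 to 1.10, those after median ratio scaling from -0.28 to 0.38, and Kdm6a is highest under all 3 scalings.

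The other genes of these pathways were without calls in nearly all comparisons. Other H3 demethylases (16 listed), H3K4 methyltransferases and their core (12), other H3K36 methyltransferases (7) and partners of the members (15) gave 645 tests over 16 comparisons, namely 15 genotype comparisons without E4.25 and the test of whether mKO effects differed by tissue. None passed limma's adjusted threshold, and 11 had an unadjusted p under 0.05, fewer than the share of 0.05 that chance alone gives. At E4.25, of the other demethylases kept, 1 of 12 was called, as higher in mKO (Kdm3b, a lysine 9 demethylase, change 1.95, SE 0.49, limma adjusted p = 0.0197). These counts stand against 14.6% of all genes called. Of the partners kept 1 of 13 was called, also as higher (Glyr1, a cofactor of KDM1B, change 1.50, SE 0.49, adjusted p = 0.0496). Median ratio scaling took these changes to 1.23 and 0.60 and removal of Rn45s to 1.41 and 0.75, neither call holding in either. Without the filter both calls were also lost (adjusted p = 0.0861 and 0.0753). Leaving out any 1 of 4 libraries, WT 2, mKO 1, mKO 2 and mKO 4, ended the Kdm3b call (0.0501 to 0.0663). Glyr1 was lost at a pseudocount of 0.1 (0.0669) and on leaving out any library but WT 1 and mKO 3 (0.0623 to 0.148). None of 7 lysine 4 and 6 lysine 36 methyltransferase genes passed there, with 2 and 0 at an unadjusted p under 0.05. Median changes of the 4 lists were 0.46 to 0.50, against 0.74 over all genes tested.

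Within the E6.5 table the extraembryonic ectoderm, the precursor of placental trophoblast, was compared with the epiblast, the precursor of the embryo proper, each with 6 libraries of the 3 genotypes. By limma 3 of 9 members passed, against 33.5% of the 11028 genes tested, so the count itself was near the background. The members' median change was -0.39, and that of all genes was -0.11, or 0.02 with Rn45s removed. The KDM5 paralogs moved in opposite directions. Kdm5b had 31.8 to 48.0 FPKM (median 42.6) in the epiblast and 6.98 to 14.0 (median 9.99) in the extraembryonic ectoderm, where it fell by 1.89 on the log2 scale (SE 0.19, adjusted p = 1.26e-05). All 6 libraries of one tissue lay apart from all 6 of the other. Kdm5a had 4.95 to 11.1 FPKM (median 6.78) in the epiblast and 10.5 to 21.7 (median 14.8) in the extraembryonic ectoderm, a rise of 1.01 (SE 0.22, adjusted p = 0.00325), with 1 epiblast mKO library reaching into the other range. Both calls held in each alternative scaling, pseudocount, filter, covariate and left-out library that was run.

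Kdm6a was lower in the extraembryonic ectoderm as well. It had 5.41 to 14.9 FPKM (median 9.42) in the epiblast and 2.46 to 5.70 (median 4.53) in the extraembryonic ectoderm, and it fell by 0.91 (SE 0.26, adjusted p = 0.0166). This call was lost without epiblast WT column 4 (adjusted p = 0.0591), mHet column 3 (0.0534) or mKO column 3 (0.0504). With the Y-linked level as a covariate the change was -0.97 (adjusted p = 0.00374). Of the members not called, Kdm1a and Kdm1b had changes of -0.50 and -0.42, Nsd1 -0.39, Kdm5c -0.03 (0.07 and 0.11 after median ratio scaling and without Rn45s), Setd2 0.22 and Kdm6b 0.35. Kdm6b passed only without extraembryonic ectoderm mHet replicate 1 (change 0.49, adjusted p = 0.0404), which made 4 members called. Whether both tissues came from the same embryos is not stated, and the fit took the libraries as independent.

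**Figure D5:**
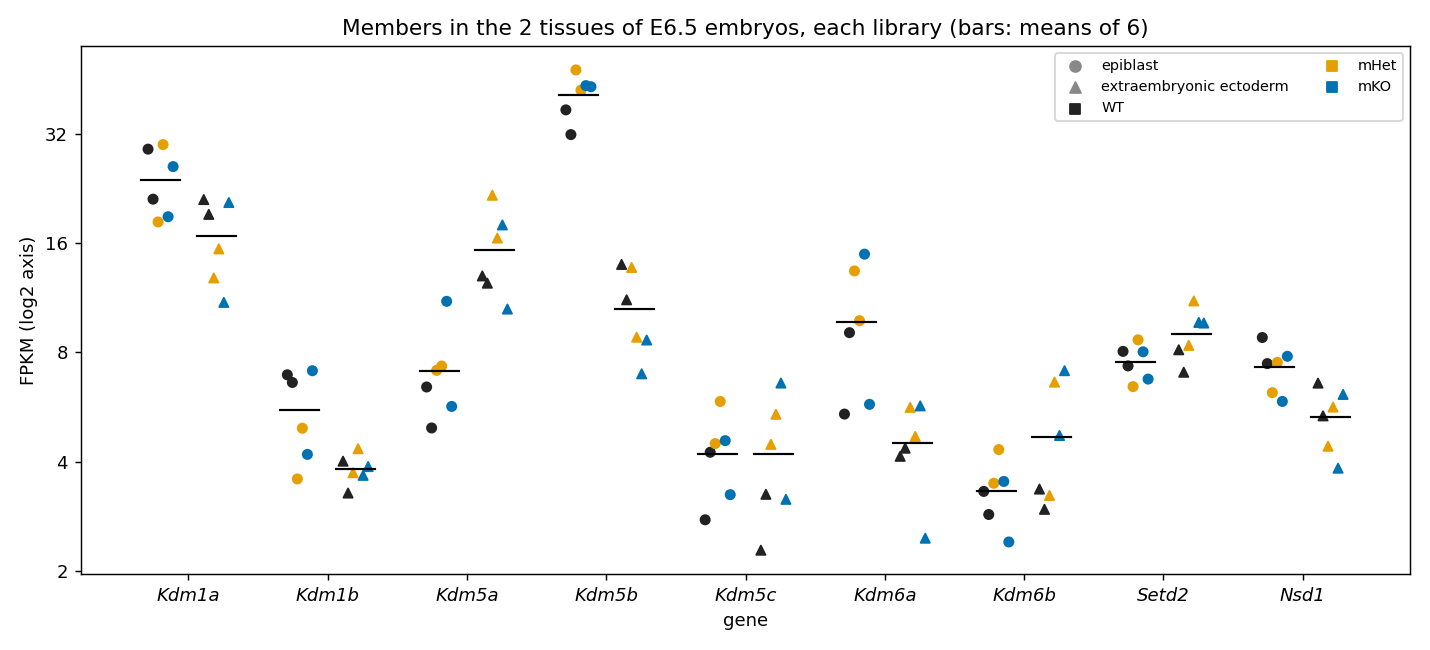
FPKM on a log2 axis of the 9 genes in each of the 6 epiblast libraries (circles) and 6 extraembryonic ectoderm libraries (triangles) at E6.5, coloured by genotype, with bars at the means. Kdm5b is separated completely and lower in extraembryonic ectoderm, Kdm5a is higher there, and 1 epiblast library of Kdm5a reaches into the extraembryonic range.

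Other demethylases between these tissues were called in 6 of 14 genes, 1 higher and 5 lower in the extraembryonic ectoderm, against 33.5% of all genes tested. The gene that rose, named here after its value was seen, was Phf2, a lysine 9 demethylase of the KDM7 family, by 0.60 (SE 0.20, adjusted p = 0.0376), a call that median ratio scaling (adjusted p = 0.0503) and dropping the filter (0.0761) ended. Leaving out epiblast WT column 3 or 4, mHet column 3, mKO column 3 or 4 or extraembryonic ectoderm WT replicate 2 ended it too (0.0651 to 0.114), and without extraembryonic ectoderm mHet replicate 2 or mKO replicate 1 the gene was below the filter. Kdm4c, a demethylase of lysines 9 and 36, fell by 2.13 (SE 0.30, adjusted p = 0.000128). Kdm7a, a lysine 9 and 27 demethylase listed as Jhdm1d, fell by 1.01 (SE 0.15, adjusted p = 0.000236), Kdm2b, a lysine 36 demethylase that recruits a PRC1 complex to CpG islands, by 1.10 (SE 0.22, adjusted p = 0.00176), and Jmjd1c by 0.83 (SE 0.24, adjusted p = 0.0185). The Jmjd1c call was lost with Rn45s removed (adjusted p = 0.0558) and without epiblast WT column 3 (0.0583), mHet column 4 (0.0530) or extraembryonic ectoderm WT replicate 2 (0.0632). The lysine 36 methyltransferases split, Nsd2 (listed as Whsc1) rising by 0.63 (SE 0.17, adjusted p = 0.0116) and Setmar falling by 0.65 (SE 0.20, adjusted p = 0.0225), 2 of 7 called. The Setmar call was lost without any 1 of 6 libraries (adjusted p = 0.0526 to 0.0652), namely epiblast WT column 3, mHet column 3 and mKO column 3 and extraembryonic ectoderm WT replicates 1 and 2 and mKO replicate 1. Of 14 partners 3 were called. Ncoa6, a subunit of the complex that holds KDM6A, rose by 0.95 (SE 0.20, adjusted p = 0.00239) and Rcor1, the CoREST scaffold, by 0.78 (SE 0.22, adjusted p = 0.0139), while Hdac2, the deacetylase of that complex, fell by 1.09 (SE 0.27, adjusted p = 0.00806). None of 12 lysine 4 methyltransferase genes passed, with 2 at an unadjusted p under 0.05.

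Within each tissue genotypes were compared with 2 libraries a group. In the epiblast mKO changes ran from -0.26 (Kdm1b) to 0.43 (Kdm5a) and mHet changes from -0.57 (Kdm1b) to 0.63 (Kdm6a), with a lowest unadjusted p of 0.0892. In the extraembryonic ectoderm they ran from -0.62 (Kdm5b) to 0.71 (Kdm6b) for mKO and from -0.49 (Kdm1a) to 0.66 (Kdm5c) for mHet. Kdm6b there had 4.72 and 7.12 FPKM in mKO and 3.36 and 2.96 in WT libraries (unadjusted p = 0.0601, limma adjusted p = 0.653). Groups without overlap were common, at 41.7% of genes in the epiblast and 51.4% in the extraembryonic ectoderm for mKO. For mHet the shares were 34.1% and 30.9%. The highest mHet changes were those of X-linked members. Y-linked sums were at most 0.170 FPKM in the mHet libraries of either tissue. In WT libraries they were 90.7 and 0.189 in the epiblast and 34.6 and 1e-06 in the extraembryonic ectoderm. Genotype and the Y-linked level were therefore not balanced in the mHet comparisons.

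For no member did the mKO effect pass a test of its difference between tissues. In this interaction test 0% of genes were called by limma and no member had an unadjusted p under 0.05. Kdm5b had 43.4 and 43.1 FPKM in mKO against 37.2 and 31.8 in WT epiblast, and 6.98 and 8.65 in mKO against 14.0 and 11.2 in WT extraembryonic ectoderm. The mKO libraries lay above WT in the epiblast and under WT in the extraembryonic ectoderm. The difference of effects was -0.94 (SE 0.48, unadjusted p = 0.0717, adjusted p = 0.972), the members ranging up to 0.77 for Kdm6b.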

How the data were processed

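Libraries were made by the Smart-seq2 protocol, per the labels' protocols. The authors deposited FPKM values per gene, in 8 tables, from 68 libraries. The submitters' processing notes name HISAT2 2.2.1, HTSeq 0.6.0, Trim Galore 0.4.2 and the builds mm9 and hg19, with no role. The tool behind FPKM, the annotation, strand use and the treatment of reads shared between paralogs were not given in the sources used here. One of 2 identical E4.25 mHet libraries was dropped, leaving 67, as were rows whose gene names had turned into dates (25 to 27 in 3 tables). Depth is unknown, so no counting intervals are given.

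Genotype groups came from sample titles. Epiblast columns carry numbers 3 and 4 where titles carry 1 and 2, so they were matched to groups only, and their column number is printed. Within each table, log2(FPKM + 1) of genes with 1 FPKM in at least 2 libraries was fitted with limma 3.58.1 (R 4.3.3, all groups together, trended variance), with Benjamini-Hochberg adjustment over all genes kept and a threshold of 0.05. SDs are over libraries. The program was tested on simulated data. Levels were also rescaled to a sum of 1000000 without Rn45s. Alternatives were another pseudocount (0.1), no filter, median ratio scaling, Rn45s removed, only the groups compared, a replicate block, library set, the Y-linked level and leaving out each library. Whether same-numbered libraries pair was checked by correlating their deviations from group means. All 6 pairs were over 0.1 in the 1-cell (0.515 to 0.557), late 2-cell (0.213 to 0.257) and first E3.5 (0.155 to 0.571) tables, so numbers pair there by the data, not by a label. With 2 libraries a group both numbers of a pair of groups give 1 and the same correlation. In the other tables at least 1 pair was under 0.1.

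All 9 genes have their levels given. Changes are given with their SE and p for members called and otherwise for at most 2 with an unadjusted p under 0.05; other members appear by ranges or single values, and Kdm6b in extraembryonic ectoderm and the Kdm5b difference between tissues were picked after their values were seen. Further, list genes are named if called, at most 4 a list, and 3 genes of like profile per member, except for Kdm5c, where this result is not reported here. Members and lists were chosen with earlier results of these data known. Promoters are from RefSeq, GRCm38.p6.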

Additional observations from a re-analysis of the deposited data

Results flagged for a closer look

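Of 45 groups of 4 to 10 libraries tested for a value far from the others, 3 were picked out, near the 1 in 20 that chance gives, and all are mHet libraries of the second E3.5 table. Kdm5a was 1.89 FPKM in replicate 3 and 3.52 to 4.09 in the other 4. Kdm5c was 2.72 FPKM in replicate 7 and 1.05 to 1.48 in the others. That library had no Y-linked transcripts and 104 FPKM of Xist, whereas the others had Y-linked sums of 7.44 to 34.3 FPKM. Setd2 was 12.0 FPKM in replicate 6 and 8.55 to 9.26 in the others. Kdm5b at E6.5 moved in opposite directions with the mKO genotype in the epiblast and the extraembryonic ectoderm, every library of each group included. The difference of effects was -0.94 on the log2 scale (limma adjusted p = 0.972). How many of all genes move in this way was not tested.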

How the results depend on the processing

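The number of members called was the same under all 116 alternatives that left out no library and under 97 of 102 that left out 1. At E4.25 the count ranged from 0 to 1 and was 1 without WT replicate 1 (Kdm6a). Between the E6.5 tissues it ranged from 2 to 4, being 2 without epiblast WT column 4, mHet column 3 or mKO column 3 (Kdm6a lost) and 4 without extraembryonic ectoderm mHet replicate 1 (Kdm6b gained). Of the members' changes named, 3 lost their call on leaving out 1 library, all Kdm6a between the E6.5 tissues, and none changed sign. With a replicate block late 2-cell Kdm6a stayed at -1.13 (adjusted p = 0.136), and no member's call changed in any comparison. Where numbers did not pair in the data, the block took mKO calls over all genes from 1 to 123 at the 8-cell stage, from 5 to 11 at E3.5 (second table) and, for KO, from 1 to 2 in oocytes. No paired fit was possible for the epiblast because its columns could not be matched to replicate numbers.

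Counts over all genes depended more on the processing. At E4.25 the 1394 called genes (1370 higher) became 868 with a pseudocount of 0.1, 306 without the filter, 30 (29 higher) with median ratio scaling, 69 (66 higher) with Rn45s removed, 1898 with the replicate block, 2121 with the Y-linked level as covariate and 321 to 1923 on leaving out 1 library. For mKO in the first E3.5 table, the 4 called genes became 12 with Rn45s removed, and in the second 5 became 12 with median ratio scaling. Removing Rn45s and rescaling the rest moved 26 of 81 WT means by more than 1 SD, 21 of them at E3.5 and E4.25. The Y-linked covariate was not run in the first E3.5 table, where it separates the genotypes. Depth is unknown, which limits values near 0, and groups of 2 libraries limit most genotype comparisons.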
